A study of Mus musculus with 6 samples.

Results

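The genes described here are the ubiquitin conjugating enzymes, whose symbols begin with Ube2, and the ubiquitin-specific proteases, whose symbols begin with Usp and a digit. They were taken by symbol from the array's annotation by a rule that uses no measured value. The choice covered 207 probe sets of 83 genes, of 45101 probe sets and 18194 genes with a single symbol on the array. The conjugating enzymes (E2s) account for 81 probe sets of 33 genes and the Usp class for 126 probe sets of 50 genes. The study measured mouse cortex on 6 Affymetrix arrays in 2 groups of 3 biological replicates. In the TRAP group (translating ribosome affinity purification), RNA came from tagged ribosomes precipitated from cortex of BAC transgenic line ES691, whose driver is S100a10. In the unbound group, RNA came from the flow-through lysate of whole cortex left after that precipitation, which the sample titles call input. Both groups come from the same line, backcrossed 3 to 5 generations from FVB onto C57BL/6, were given no treatment and were amplified with a 2-cycle kit starting with 15 ng of RNA. The labels give no age, sex or number of animals, and the series text warns that the S100a10 BAC marks some non-neuronal cells beside the cortical pyramidal cells of its title.

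Ubiquitin is attached to proteins by a relay in which an activating enzyme (E1) loads a conjugating enzyme (E2), and the E2 works with a ligase (E3) that chooses the substrate. Ubiquitin-specific proteases (Usps) are the largest family of cysteine proteases that take ubiquitin off again, so both classes act on the same modification from opposite sides. In neurons this modification controls protein turnover by the proteasome, endocytosis of receptors, and the make-up of synapses.

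S100a10 itself, the driver gene, had intensities of 14362, 15087 and 12934 on the TRAP arrays, against 2950.4, 2174 and 2165 on the unbound arrays, 5.86-fold higher in TRAP (log2 difference 2.55 ± 0.15 SE, adjusted p = 8.4e-05). The median intensity over all probe sets was 31.4 to 31.8 on the TRAP arrays and 42.4 to 43.1 on the unbound arrays, so the deposited values differ in level between the groups as a whole. Each comparison was therefore also made with every array centred on its own median and after quantile normalisation. The median log2 difference of all 12070 tested genes was -0.21 as deposited, 0.058 after centring and 0.0074 after quantile normalisation. Markers of other cell types moved with the groups: 9 of 9 tested meningeal fibroblast markers were higher in TRAP, with a summed intensity of 29570 to 33252 on the TRAP arrays against 1240 to 1490.2 on the unbound arrays. Lower in TRAP were 8 of 9 tested markers of oligodendrocytes, 7 of 8 of microglia, and 8 of 10 of interneurons. Of 10 astrocyte markers 3 were higher and 6 lower, and of 9 pyramidal neuron markers 3 were higher and 4 lower. Of 8 markers of pericytes and smooth muscle 5 were higher and 2 lower, with summed intensities of 5904 to 7369.5 on the TRAP arrays and 2894 to 3198 on the unbound arrays. Of 4 endothelial markers 2 were higher and 2 lower, with summed intensities of 4149 to 4517 on the TRAP arrays and 778 to 869 on the unbound arrays. Most of these sums was Itm2a, with means of 4088 in TRAP and 467 in unbound. The means of Abcb1a were 142 in TRAP and 37.6 in unbound, those of Cldn5 53.1 and 68.6, and those of Slco1c1 42.0 and 253. Markers had to reach a mean intensity of 50 in at least 1 group. Foxc2, Lum, Col1a2 and Abcb1a did so only in TRAP, so among tested genes they could only be higher. C1qa, Gpr34, P2ry12, Cx3cr1, Myrf, Gfap and Slco1c1 did so only in unbound, so they could only be lower. Summed intensities of the oligodendrocyte markers were 9127 to 14741 on the TRAP arrays and 52634 to 58300 on the unbound arrays, and those of the microglia markers 520.3 to 755 on the TRAP arrays and 1590 to 2075 on the unbound arrays, with P2ry12 at a mean of 7.44 in TRAP. The part of these cells in the differences below was not tested. As unbound RNA is what the precipitation left, tagging of a cell type and ribosome binding of its RNA cannot be told apart.

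Of the 207 probe sets, 154 reached a mean intensity of 50 in at least 1 group and were tested, and 53 did not. They represent 74 genes, 30 E2s and 44 Usps, each taken at its brightest probe set. The 9 genes with no probe set above the minimum were Ube2c, Ube2d2b, Ube2u, Usp17la, Usp26, Usp44, Usp46os2, Usp50 and Usp9y, with group means up to 30.003. A few symbols meet the naming rule without belonging to the enzymes: Usp6nl encodes a GTPase-activating protein, Ube2d-ps is a pseudogene, and Ube2cbp encodes an E2-binding protein.

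At the brightest probe set of each gene, the E2 genes as a class were near equality between TRAP and unbound RNA, while most Usp genes were lower in TRAP RNA. Among 30 E2 genes 8 were lower (26.7%) and 6 were higher (20%), and among 44 Usp genes 28 were lower (63.6%) and 3 were higher (6.82%), at an adjusted p below 0.05. Of all 12070 genes, 45.6% were lower and 23.2% were higher by the same test. The share of E2 genes called higher was thus close to that of all genes, and their share called lower was below it. Of the Usp genes a larger share was lower, and a smaller share higher, than of all genes. The median log2 difference was 0.0083 for the E2 genes (quartiles -0.29 and 0.19) and -0.40 for the Usp genes (quartiles -0.77 and -0.20), on either side of the -0.21 of all genes. Of the E2 genes 9 of 30 lay below the median of all genes, and of the Usp genes 31 of 44. The place of the E2 genes above all genes depended on the probe sets used. Without probe sets of types that can match several transcripts (_x_at, _s_at, _a_at), the E2 median was -0.27, as was that of all genes. The Usp median was then -0.51, and 13 of 28 E2 genes were lower, against 49.2% of all genes.

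The order of the classes was the same on each TRAP array set against the mean of the unbound arrays. The E2 median was 0.047, 0.0075 and 0.028 on the log2 scale on TRAP arrays 1, 2 and 3, and the Usp median was -0.40, -0.43 and -0.42. The E2 median minus the Usp median was therefore 0.45, 0.43 and 0.45, with a mean of 0.44 ± 0.0094 (SD, n = 3). This SD covers the TRAP arrays only, since each was set against the same unbound mean, and leaves out the spread of the unbound arrays. The genes of a class are not replicates of one another, so no test of this difference between classes was made. With all probe sets of a gene in place of the brightest, 18 of 65 E2 probe sets were lower and 15 higher, and 53 of 89 Usp probe sets were lower and 5 higher. Over all 22591 tested probe sets 47.7% were lower and 20.6% were higher.

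**Figure D1:**
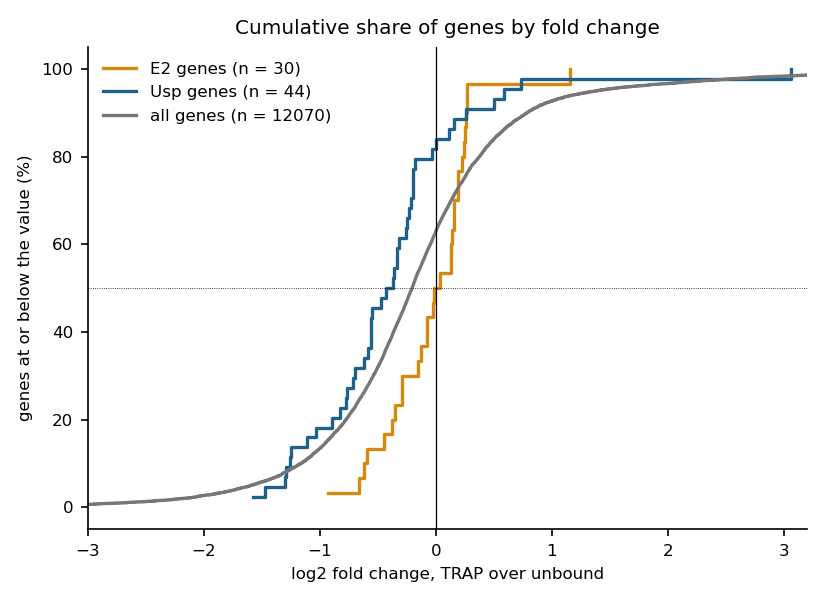
Cumulative share of genes (vertical axis, percent) at or below each log2 difference, TRAP over unbound (horizontal axis), for 30 E2 genes, 44 Usp genes and all 12070 tested genes. The median of the E2 genes is 0.0083, that of the Usp genes -0.40 and that of all genes -0.21.

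The scaling moved the counts and kept the order of the classes. After centring, 17 E2 genes were higher and 4 lower, while 8 Usp genes were higher and 19 lower, where 37.0% of all genes were higher and 30.2% lower. The centred medians were 0.27 for the E2 genes and -0.13 for the Usp genes, and after quantile normalisation they were 0.17 and -0.18. Calls made in one direction under all 3 scalings were 6 higher and 4 lower E2 genes, and 3 higher and 19 lower Usp genes, where 23.1% of all genes were higher and 29.0% lower. In all, 19 of 44 Usp genes (43.2%) therefore fell whichever scaling was used.

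Large changes were few among the E2s. Among called genes, 1 of 30 E2s was at least 2-fold higher and the most reduced was Ube2o, 1.91-fold lower. Of 44 Usps 8 were at least 2-fold lower and 1 was at least 2-fold higher. In all genes 13.3% were called and at least 2-fold lower, and 7.29% were called and at least 2-fold higher. The Usp share of such falls was somewhat above that of all genes. In limma's test against a 2-fold change, which asks for more than a 2-fold difference beyond error, Usp18 passed upward and Usp31, Usp9x and Usp24 passed downward. These are 1 and 3 of 44 Usp genes, where 555 of all 12070 genes passed upward and 813 downward. Usp18 passed the intensity minimum only through the TRAP arrays, and its difference was 1.72-fold with values under 50 raised to 50. The E2 class lay above the Usp class at bright and at dim probe sets, with medians of 0.13 in 20 E2 genes and -0.56 in 10 Usp genes at a mean intensity of at least 2000, and -0.079 in 5 E2 genes and -0.37 in 17 Usp genes under 500. Between these limits the order turned, with -0.35 in 5 E2 genes and -0.23 in 17 Usp genes.

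**Figure D2:**
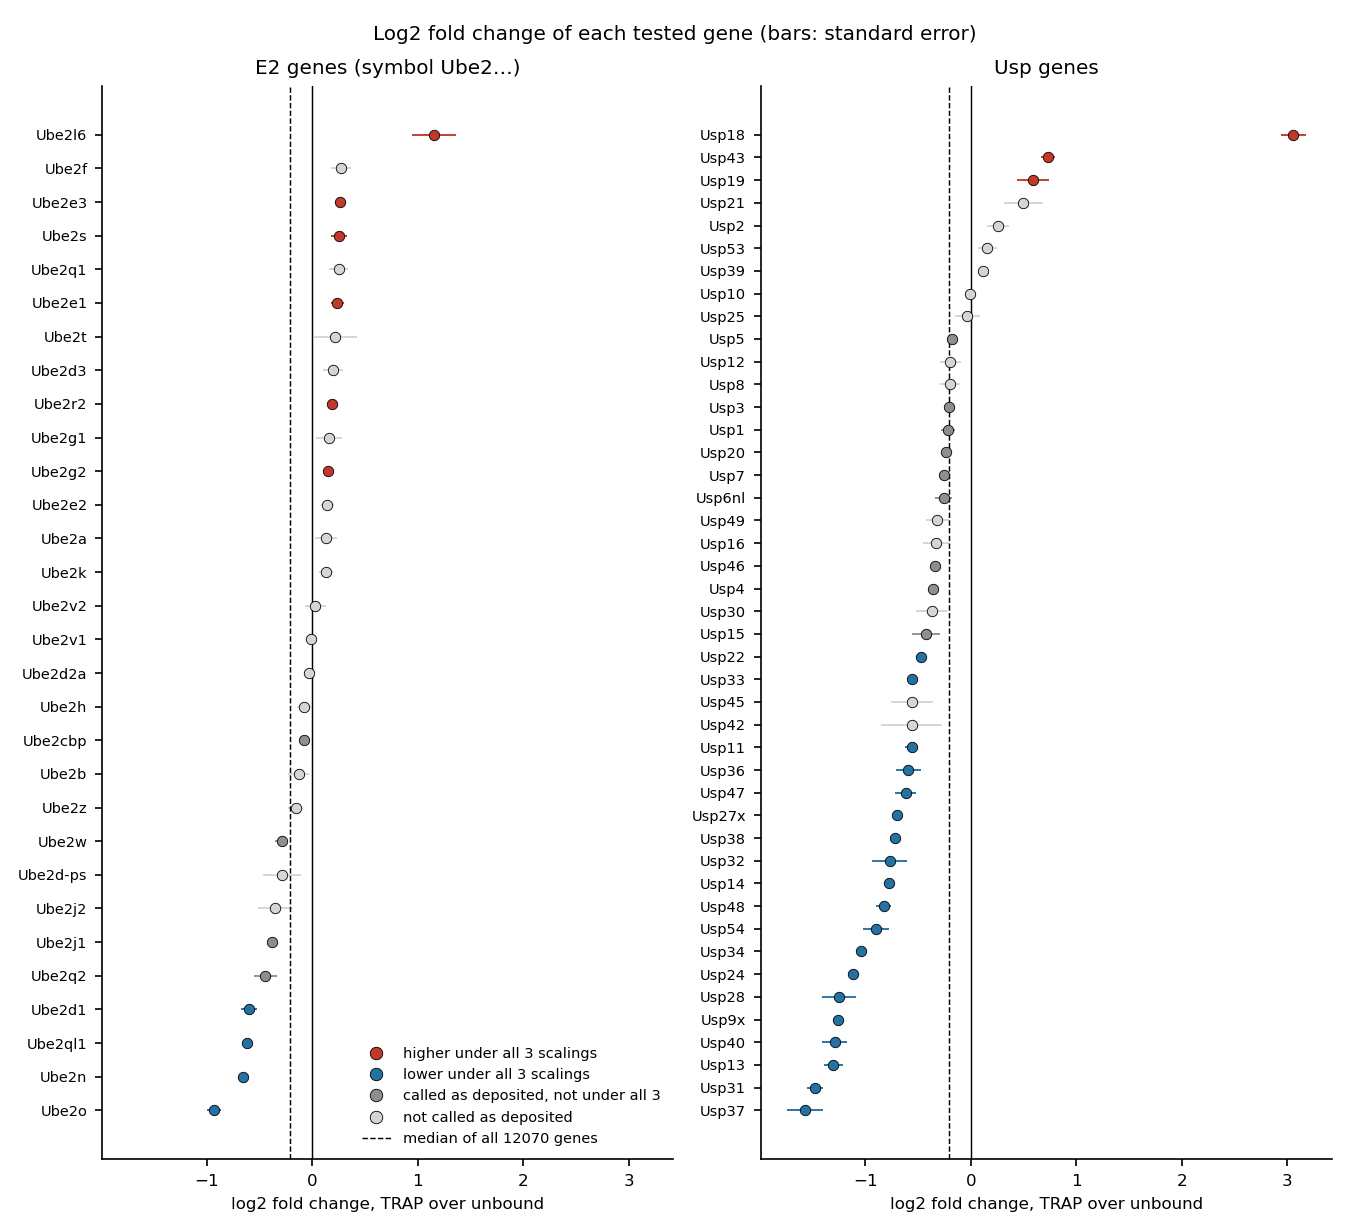
Log2 difference, TRAP over unbound, of each tested E2 gene (left) and Usp gene (right), ranked from highest to lowest. Points are limma estimates and bars standard errors, colour gives the call, and the dashed line is the median of all genes (-0.21). Ube2l6 (1.15) and Usp18 (3.06) stand above their classes, and the Usp ranking extends down to -1.57 (Usp37) against -0.93 (Ube2o) among the E2s.

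Ube2l6 and Usp18 topped the E2 and Usp rankings, and both belong to the pathway of ISG15, a ubiquitin-like protein induced by interferon. Uba7 is its E1, Ube2l6 its E2, Herc6 the mouse E3 for it, and Usp18 the protease that removes it. Usp18 had intensities of 101, 84.7 and 73.8 on the TRAP arrays and 10.3 on every unbound array, 8.33-fold higher in TRAP (log2 difference 3.06 ± 0.12 SE, adjusted p = 2.1e-05). All TRAP arrays lay above all unbound arrays, and the unbound level is near the bottom of the scale, where GCRMA values are imprecise. Groups without overlap were common, with TRAP above in 3123 and below in 5984 of all 12070 genes. Ube2l6 had 67.1, 52.8 and 38.4 on the TRAP arrays and 23.1 on every unbound array, 2.22-fold higher (log2 difference 1.15 ± 0.21 SE, adjusted p = 0.0059). The TRAP arrays again lay above the unbound ones, but with the floor at 50 the difference was 1.12-fold and the call was lost (adjusted p = 0.27). Uba7 had 59.7, 57.3 and 57.3 on the TRAP arrays, against 17.3, 17.3 and 16.9 on the unbound arrays, 3.39-fold higher (adjusted p = 1.4e-06) and 1.16-fold with the floor. These 3 genes passed the intensity minimum only through the TRAP arrays, so among tested genes they could only be higher. Herc6 went the other way, with 119, 89.8 and 102 on the TRAP arrays against 146, 138 and 127 on the unbound arrays (log2 difference -0.41, adjusted p = 0.032), and was not called after centring or quantile normalisation. Isg15 itself was not analysed here.

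The promoters of Ube2l6 and Uba7 are printed because both genes belong to the ISG15 pathway. Their shared direction was fixed by the intensity minimum and is not read as a finding. Each is the stretch of 250 bases before the gene's start in RefSeq's annotation of build GRCm38.p6, plus strand. Capitals mark GAAA, the repeated element of interferon-stimulated sites, or its reverse complement TTTC.
Ube2l6, chr2:84798578-84798827: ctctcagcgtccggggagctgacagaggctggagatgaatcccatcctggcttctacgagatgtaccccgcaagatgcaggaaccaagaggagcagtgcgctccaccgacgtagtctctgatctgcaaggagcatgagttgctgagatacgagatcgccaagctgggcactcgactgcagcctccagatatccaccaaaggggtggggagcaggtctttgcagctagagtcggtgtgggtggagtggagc
Uba7, chr9:107975317-107975566: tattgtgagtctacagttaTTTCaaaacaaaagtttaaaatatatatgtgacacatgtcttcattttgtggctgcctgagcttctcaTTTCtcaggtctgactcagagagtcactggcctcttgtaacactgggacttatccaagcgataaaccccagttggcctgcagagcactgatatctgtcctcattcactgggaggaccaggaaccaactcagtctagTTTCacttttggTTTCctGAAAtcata
The Ube2l6 stretch holds 0 of these elements and the Uba7 stretch 5, where the median was 2 and 9.92% of the 9789 tested genes with a promoter in the table held at least 5. The core of the interferon-stimulated response element, searched as GAAANNGAAA on both strands, is in neither stretch. It was found in 0 of 24 E2 promoters and in 1 of 33 Usp promoters (Usp49), against 2.33% of tested genes and 3.04% of all 27025 promoters in the table. Both classes had promoters rich in CG dinucleotides, with a median of 23 in 250 bases for the E2 genes and 25 for the Usp genes, against 16 for all tested genes.

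**Figure D3:**
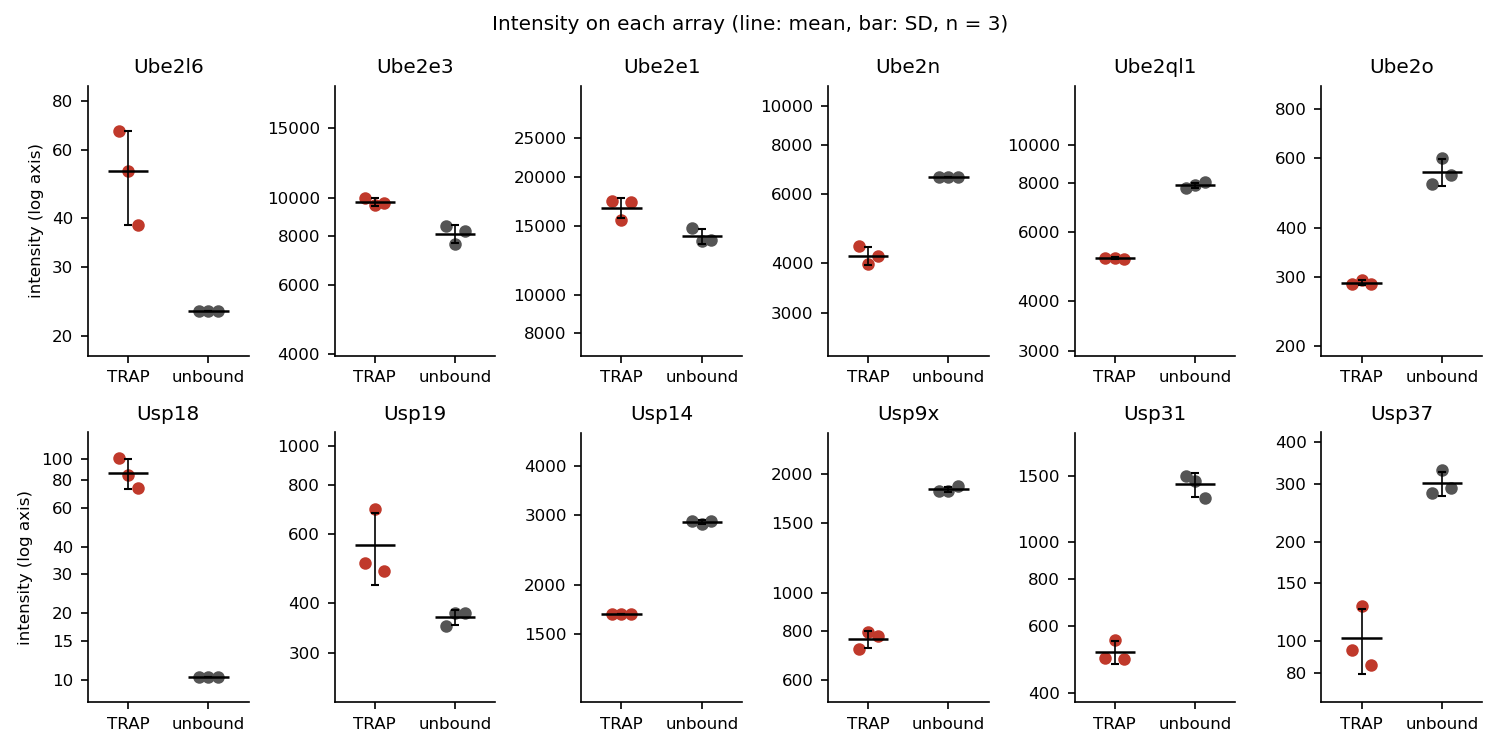
Intensity (vertical log axes, a scale of its own for each gene) on the 3 TRAP and 3 unbound arrays for 6 E2 genes (top) and 6 Usp genes (bottom). Points are arrays, lines are group means and bars are SD (n = 3). In each of these genes the TRAP and unbound arrays do not overlap, as in most genes: TRAP lay above in 3123 and below in 5984 of all 12070. Points of equal height, as in Ube2n unbound at 6602, are values that the deposited table repeats.

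The E2s of the D and E families work with many RING and HECT ligases. Of 6 tested, 2 were higher and 1 lower, with a median log2 difference of 0.17, where 23.2% of all genes were higher and 45.6% lower. Ube2e3 had 9986, 9553 and 9691 on the TRAP arrays, against 8473, 7617 and 8204 on the unbound arrays (log2 difference 0.27 ± 0.05 SE, adjusted p = 0.0060). Ube2e1 had 17328, 15541 and 17201 on the TRAP arrays, against 14832, 13743 and 13793 on the unbound arrays (0.24 ± 0.06 SE, adjusted p = 0.018). In both the groups did not overlap, and the rise was 1.204-fold in Ube2e3 and 1.18-fold in Ube2e1. The call of Ube2e1 was lost without TRAP replicate 1, TRAP replicate 3, unbound replicate 2 or unbound replicate 3. The third member, Ube2e2, differed by 0.14 with an adjusted p of 0.097. Ube2d1 fell to 624, 572 and 529.6 on the TRAP arrays, against 913, 824 and 865 on the unbound arrays (-0.59 ± 0.08 SE, adjusted p = 0.0015). Its relative Ube2d2a was among the brightest members on both sides, at 17465 to 18622 on the TRAP arrays and 18388 to 18811 on the unbound arrays, with overlapping groups. Ube2d3 differed by 0.19 at its brightest probe set (adjusted p = 0.13, and 0.044 with the replicate number as a block).

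Ube2n makes chains linked through lysine 63 of ubiquitin, a form used in signalling and DNA repair, and it does so with an inactive partner, Ube2v1 or Ube2v2. Ube2n fell to 4414, 3973 and 4163 on the TRAP arrays, against 6602 on every unbound array (log2 difference -0.66 ± 0.04 SE, adjusted p = 1.5e-04). Its second probe set differed by 0.37 in the opposite direction, with an adjusted p of 0.097, and was called higher with the replicate number as a block (adjusted p = 0.020), after centring and after quantile normalisation, so that under these settings its 2 probe sets were called in opposite directions. The partners were not called at their brightest probe sets, at -0.015 for Ube2v1 and 0.032 for Ube2v2. The Rad6 enzymes Ube2a and Ube2b, which mark histone H2B and PCNA, were not called at their brightest probe sets, at 0.13 and -0.13. The second probe set of Ube2a was higher, with 3046, 2506 and 2769 on the TRAP arrays, against 1558, 1083 and 1319 on the unbound arrays (1.08 ± 0.16 SE, adjusted p = 0.0024), under all 3 scalings and with the block. The call for Ube2a therefore depends on the probe set.

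Of 5 tested E2s of protein degradation, several of them at the endoplasmic reticulum, 1 was higher and 1 lower, against 23.2% and 45.6% of all genes. Ube2j1, an E2 anchored in that membrane, had 2847, 2847 and 2815 on the TRAP arrays, against 3663, 3729.7 and 3679 on the unbound arrays (log2 difference -0.38 ± 0.02 SE, adjusted p = 1.0e-04), and was not called after centring. Its relative Ube2j2 differed by -0.35, with an adjusted p of 0.10 and of 0.0031 with the replicate number as a block. Ube2g2, another E2 of that pathway, had 2498, 2657 and 2447 on the TRAP arrays, against 2202, 2265 and 2362 on the unbound arrays (0.15 ± 0.05 SE, adjusted p = 0.034), a call lost with the block (adjusted p = 0.072) and on leaving out TRAP replicate 1, TRAP replicate 2, unbound replicate 1 or unbound replicate 2. Ube2g1 and Ube2k were not called at their brightest probe sets, at 0.16 and 0.13. A dimmer probe set of Ube2g1 fell to 83.4, 104 and 64.3 on the TRAP arrays, against 208, 289 and 149.8 on the unbound arrays (-1.34 ± 0.31 SE, adjusted p = 0.013), under all 3 scalings. Of the E2s that serve cullin and mitotic ligases, Ube2r2 had 2350.2, 2249 and 2249 on the TRAP arrays and 1996 on every unbound array (0.19 ± 0.03 SE, adjusted p = 0.0027). Ube2s, which extends chains for the anaphase-promoting complex, had 776, 643 and 704 on the TRAP arrays, against 598, 598 and 573 on the unbound arrays (0.26 ± 0.08 SE, adjusted p = 0.030). Its groups did not overlap, but the call was lost without TRAP replicate 3 or any 1 of the unbound arrays. Ube2f, an E2 for Nedd8, differed by 0.27 (adjusted p = 0.053).

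The large or atypical E2s held 5 of the 8 members lower as deposited, among them the E2-binding protein Ube2cbp. Of 7 tested, 5 were lower, where 45.6% of all genes were, and limma called 0 higher. Ube2q1, at 0.25 with an adjusted p of 0.060, was the 1 above 0. The median log2 difference of the group was -0.29. Ube2o, a very large enzyme that acts as E2 and E3 in one chain, fell to 287, 294 and 287 on the TRAP arrays, against 515, 602 and 543 on the unbound arrays (-0.93 ± 0.06 SE, adjusted p = 1.6e-04). Ube2ql1, a relative of the Ube2q enzymes, fell to 5164, 5164 and 5111 on the TRAP arrays, against 7777, 7887 and 8017 on the unbound arrays (-0.62 ± 0.02 SE, adjusted p = 2.3e-05). Both kept their calls under all 3 scalings, the only members of this group to do so, where 29.0% of all genes were lower. Ube2q2 had 617, 534 and 611 on the TRAP arrays, against 904, 778 and 720.0 on the unbound arrays (-0.44 ± 0.11 SE, adjusted p = 0.016). Ube2w, which attaches ubiquitin to the amino terminus of proteins, differed by -0.29 (adjusted p = 0.0093). Neither Ube2q2 nor Ube2w was called after centring or quantile normalisation. Ube2cbp, at -0.079 as deposited (adjusted p = 0.029, and 0.080 with the block; not called without unbound replicate 2), was called higher after centring and after quantile normalisation, so its direction depends on the scaling. Ube2z differed by -0.16 with an adjusted p of 0.091, and of 0.035 with the block. With the block Ube2q1 was called higher (adjusted p = 0.011).

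Usp7, Usp9x, Usp24, Usp34 and Usp47 are multi-domain enzymes that include the largest Usps. All 5 were lower as deposited, against 45.6% of all genes, with a median log2 difference of -1.04. Usp9x, an X-linked enzyme needed in neuronal development, fell to 722, 794 and 775 on the TRAP arrays, against 1814, 1814 and 1864 on the unbound arrays, 2.40-fold lower (log2 difference -1.26 ± 0.04 SE, adjusted p = 1.5e-05). Usp24 had 177, 177 and 182 on the TRAP arrays, against 379, 389.5 and 389.5 on the unbound arrays, 2.16-fold lower (-1.11 ± 0.03 SE, adjusted p = 4.6e-06). Usp34, which acts in Wnt signalling on axin, had 2265, 2265 and 2048 on the TRAP arrays, against 4513, 4513 and 4442 on the unbound arrays, 2.05-fold lower (-1.04 ± 0.05 SE, adjusted p = 4.1e-05). In these 3 genes every TRAP array lay below every unbound array, and the calls held under all 3 scalings. Usp47, which acts on DNA polymerase beta in base excision repair, differed by -0.62 (adjusted p = 0.0040). Usp7, the protease of Mdm2 and p53, differed by -0.25 (adjusted p = 6.6e-04) as deposited and by 0.012 after centring, where it was not called. The 6 tested probe sets of Usp7 lay between -0.43 and 0.88, and were not called in opposite directions.

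The steepest falls were in Usps that do not form one group by role. Usp37, a protease of the cell cycle that acts on cyclin A, fell to 94.3, 128 and 84.9 on the TRAP arrays, against 282, 329.6 and 291 on the unbound arrays, 2.98-fold lower (log2 difference -1.57 ± 0.17 SE, adjusted p = 9.0e-04). Usp31 fell to 493, 552 and 489.7 on the TRAP arrays, against 1502, 1456 and 1309 on the unbound arrays, 2.78-fold lower (-1.47 ± 0.08 SE, adjusted p = 6.0e-05). The second tested probe set of Usp31 differed by 0.017 and was not called as deposited, and it was called higher after centring and after quantile normalisation. That of Usp37 differed by only -0.34. Usp40 had 53.7, 42.3 and 51.8 on the TRAP arrays, against 131, 111 and 119 on the unbound arrays (-1.29 ± 0.12 SE, adjusted p = 4.3e-04). Its mean of 49.3 on the TRAP arrays is under the minimum, so that among tested genes it could only be lower, and with values under 50 raised to 50 it differed by -1.21 (adjusted p = 1.3e-04). Usp28, a stabiliser of Myc and of DNA damage response proteins, had 91.3, 91.3 and 98.1 on the TRAP arrays, against 282, 192 and 203 on the unbound arrays (-1.25 ± 0.16 SE, adjusted p = 0.0016). Its close relative Usp25 was not called, at -0.031, with overlapping groups.

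Usp13 and Usp5 are sister enzymes, and Usp5 takes apart free ubiquitin chains. Usp13 fell to 251, 279 and 251 on the TRAP arrays, against 605, 723 and 603 on the unbound arrays, 2.47-fold lower (log2 difference -1.30 ± 0.09 SE, adjusted p = 1.8e-04). The second tested probe set of Usp13 differed by -0.55. Usp5 had 1184, 1181 and 1133 on the TRAP arrays, against 1256, 1353 and 1356 on the unbound arrays (-0.18 ± 0.04 SE, adjusted p = 0.015). The fall of Usp5 was called as deposited and turned to 0.083 after centring and 0.014 after quantile normalisation, without a call, and the call was also lost without unbound replicate 3. Usp14 sits on the proteasome and trims ubiquitin from substrates there, and its loss causes ataxia in mice. It had 1688 on every TRAP array, against 2901, 2853 and 2901 on the unbound arrays (-0.77 ± 0.02 SE, adjusted p = 8.3e-06), called under all 3 scalings. A second probe set of Usp14, with means of 1784 in TRAP and 2104 in unbound, differed by -0.24 as deposited (adjusted p = 6.2e-04) and by 0.026 after centring, without a call there. Another probe set of Usp14 differed by 0.054 and was not called as deposited, and it was called higher after centring.

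Usp4, Usp11 and Usp15 share a domain architecture, and all 3 were lower as deposited, against 45.6% of all genes, with a median log2 difference of -0.43. Usp11 had 720.1, 720.1 and 706 on the TRAP arrays, against 978, 1050.3 and 1138 on the unbound arrays (-0.56 ± 0.06 SE, adjusted p = 8.9e-04) and was lower under all 3 scalings. Usp4 (-0.36, adjusted p = 0.0016) and Usp15 (-0.43, adjusted p = 0.038) were not called after centring. The call of Usp15 was also lost without TRAP replicate 1, TRAP replicate 3 or any 1 of the unbound arrays. Of the Usps activated by Wdr48 (Uaf1), Usp46, which in mice affects immobility behaviour, had 2479, 2413 and 2479 on the TRAP arrays, against 3271, 3029 and 3025 on the unbound arrays (-0.34 ± 0.04 SE, adjusted p = 0.0013), and was not called after centring. Usp1, the protease of PCNA and Fancd2, differed by -0.22 (adjusted p = 0.043, and 0.052 with the block), a call lost in the same 5 fits. Usp12 differed by -0.19 (adjusted p = 0.15, and 0.018 with the block).

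Of 6 tested Usps that act on histones, 3 were lower as deposited, a share near the 45.6% of all genes, and 2 were lower after centring. Usp22, the protease of the SAGA coactivator, had 3344, 3165 and 3097 on the TRAP arrays, against 4203, 4578 and 4537 on the unbound arrays (-0.47 ± 0.05 SE, adjusted p = 8.3e-04). Its X-linked relative Usp27x had 702, 719.8 and 690.0 on the TRAP arrays, against 1156, 1148 and 1129 on the unbound arrays (-0.70 ± 0.03 SE, adjusted p = 2.4e-05). Both were lower under all 3 scalings. Usp3 differed by -0.20 as deposited (adjusted p = 0.0018) and by 0.063 after centring, where it was not called. Usp21 stood the other way in this role, at 0.50, with 1076, 921 and 1295 on the TRAP arrays against 806, 636 and 886 on the unbound arrays. It missed the threshold as deposited (adjusted p = 0.058) and was called higher after centring, after quantile normalisation and with the block (adjusted p = 0.0037). Usp16 (-0.33, adjusted p = 0.060) was called lower with the block (adjusted p = 0.046), and Usp49 was not called (-0.31 or 1.24-fold lower, adjusted p = 0.051).

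Among the Usps of membranes and organelles, 3 of 6 were lower and 1 was higher, shares near the 45.6% and 23.2% of all genes. Usp19, an enzyme with a form anchored in the endoplasmic reticulum, had 507, 696 and 483 on the TRAP arrays, against 349.5, 379 and 378 on the unbound arrays, 1.504-fold higher (log2 difference 0.59 ± 0.15 SE, adjusted p = 0.021). TRAP replicate 2 stood highest, the groups did not overlap, and the call was lost without unbound replicate 1, 2 or 3. The second tested probe set of Usp19 differed by 0.10. Usp32, a membrane-bound enzyme, had 10040.3, 7200.2 and 10819 on the TRAP arrays, against 15839, 15385 and 15839 on the unbound arrays (-0.77 ± 0.16 SE, adjusted p = 0.010). Usp33 had 3625, 3584 and 3625 on the TRAP arrays, against 5336, 5245 and 5336 on the unbound arrays (-0.56 ± 0.02 SE, adjusted p = 2.7e-05). Its relative Usp20 differed by -0.23 (adjusted p = 0.0011) as deposited and was not called after centring. Usp30, the Usp of the outer mitochondrial membrane, which opposes the removal of mitochondria by parkin, differed by -0.37 (adjusted p = 0.071, and 0.041 with the block). Usp8, a protease of endosomal sorting, differed by -0.20 and was not called.

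Of the 3 tested nuclear and nucleolar Usps other than Usp37, 2 were lower, against 45.6% of all genes. Usp48 had 415, 455 and 384 on the TRAP arrays, against 775, 725 and 717 on the unbound arrays (log2 difference -0.83 ± 0.07 SE, adjusted p = 4.2e-04). Usp36, a nucleolar enzyme, had 186, 199 and 162 on the TRAP arrays, against 306, 279 and 241 on the unbound arrays (-0.59 ± 0.12 SE, adjusted p = 0.0088). The second tested probe set of Usp36 differed by 0.019. Usp42 was not called at -0.56, since 1 of its unbound arrays, at 397, lay below the TRAP arrays, at 410.0 to 412. Among other members, Usp54 was lower (-0.90 ± 0.12 SE, adjusted p = 0.0020). Usp39, a splicing factor of the tri-snRNP, differed by 0.11 (adjusted p = 0.051), and Usp53, which is found at tight junctions, differed by 0.16 (adjusted p = 0.18, and 0.045 with the block, as higher). Usp6nl, the GTPase-activating protein, lost its call with the block (-0.26, adjusted p = 0.033 without and 0.080 with it), and on leaving out TRAP replicate 1, TRAP replicate 3, unbound replicate 2 or unbound replicate 3.

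The remaining Usps included the third member called higher. Usp43 had 59.6, 51.3 and 59.6 on the TRAP arrays and 34.1 on every unbound array, 1.66-fold higher (log2 difference 0.73 ± 0.07 SE, adjusted p = 4.7e-04). It too passed the intensity minimum only through the TRAP arrays, and with the floor at 50 the difference was 1.13-fold and the call was lost (adjusted p = 0.066). Usp38 had 379.8 on every TRAP array, against 641, 641 and 588 on the unbound arrays (-0.71 ± 0.04 SE, adjusted p = 9.9e-05). Usp45 differed by -0.56 (adjusted p = 0.053, and 0.0077 with the block). Usp10 and Usp2 were not called, at -0.0023 and 0.26. With the replicate number as a block, 5 Usp genes were called higher in place of 3, and 30 lower in place of 28. With that block 24.5% of all genes were higher and 47.6% lower.

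Different probe sets of one gene disagreed more often among the E2s than among the Usps. Of 20 E2 genes with several tested probe sets, 5 had at least 1 called higher and at least 1 called lower (25%: Ube2d3, Ube2f, Ube2h, Ube2j1 and Ube2r2), against 1 of 26 Usp genes (3.85%: Usp1) and 10.1% of 5152 such genes over the array. All probe sets had the same sign in 7 of the 20 E2 genes (35.0%) and in 19 of the 26 Usp genes (73.1%), against 69.0% over the array. The difference between these shares was not tested, since probe sets of one gene share their source. Ube2d3 had 7 tested probe sets between -0.59 and 0.78, 3 called higher and 2 called lower. Ube2f had its brighter probe sets at 0.27, 0.28 and 0.35, and its dimmest at -0.96. The second probe set of Ube2j1 was called higher at 0.52, and that of Ube2r2 was called lower at -0.43. Ube2h had 1 probe set at 0.19, called higher, and 1 at -0.24, called lower. The 3 tested probe sets of Usp1 lay between -0.46 and 0.43. For Ube2d3, Ube2f, Ube2h, Ube2j1, Ube2r2 and Usp1 the direction therefore holds for a probe set, not for the gene.

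The lowest differences of any member came from single dim probe sets. One probe set of Ube2b had 7.33 on every TRAP array, against 535.5, 275 and 409 on the unbound arrays (log2 difference -5.74 ± 0.25 SE, adjusted p = 3.2e-05). It passed the intensity minimum only through the unbound arrays, so among tested probe sets it could only be lower. With values under 50 raised to 50 it differed by -2.97. The brightest probe set of the same gene had 8992, 7685 and 7914 on the TRAP arrays, against 9901, 8058 and 8914 on the unbound arrays, and was not called. One probe set of Usp32, which also passed the minimum only through the unbound arrays, had 5.07 on every TRAP array and 88.4 on every unbound array (-4.12). The brightest probe set of Usp32 differed by -0.77. At other members the brightest probe set was not called and a dimmer one was, as in Ube2j2 (-1.92, adjusted p = 1.7e-06, at a probe set that passed the minimum only through the unbound arrays), Ube2v1 (-0.25, adjusted p = 0.018) and Usp39 (0.31, adjusted p = 1.6e-04). Usp9x was lower at 4 of its 5 tested probe sets (at the fifth with an adjusted p of 0.058, and of 0.025 with the block), between -0.34 and -1.90, and Usp24 at all 3, between -0.77 and -1.11. Usp15 ranged between -1.61 and -0.053 over 5 probe sets.

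**Figure D4:**
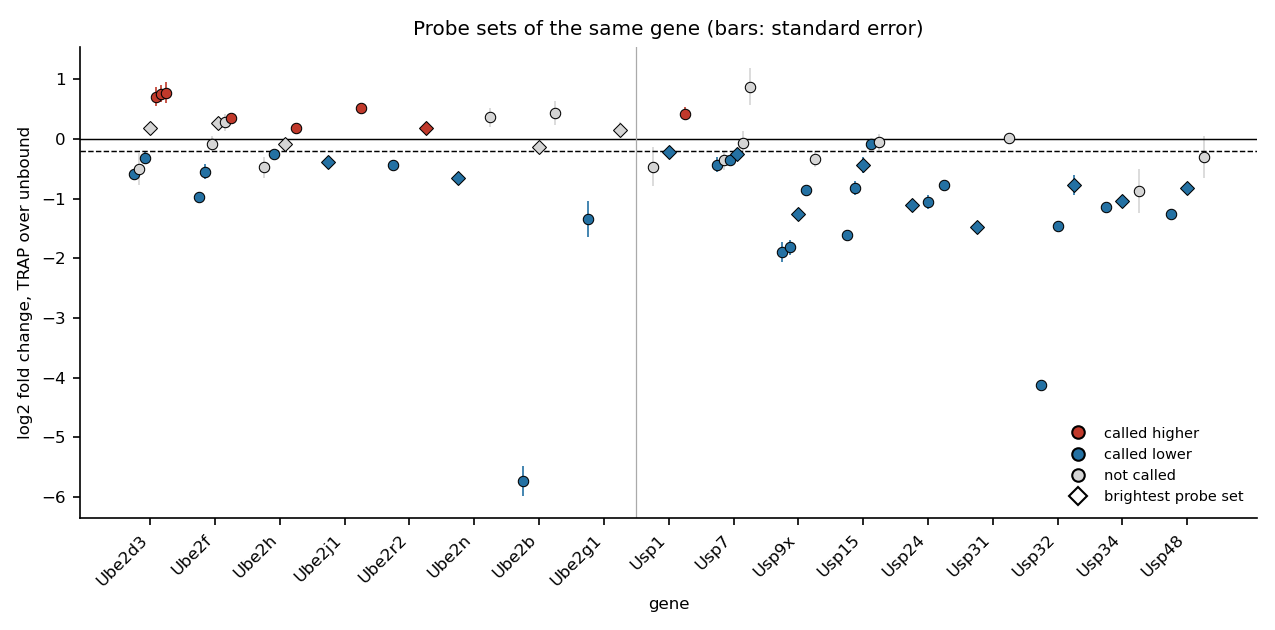
Log2 difference, TRAP over unbound, of each tested probe set of 8 E2 genes and 9 Usp genes with several. Diamonds are the brightest probe set of the gene, bars are standard errors, colours give the call, and the dashed line is the median of all genes (-0.21). Ube2d3 spans -0.59 to 0.78, while the probe sets of Usp9x lie between -1.90 and -0.34.

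Other genes of the pathway were counted from lists, beside the same 23.2% higher and 45.6% lower over all genes. Of 32 tested deubiquitinases of other families, 18 were lower and 2 higher as deposited, with a median log2 difference of -0.27, and 10 were lower and 7 higher after centring, with a median of -0.0089. The most reduced of those called were Yod1 (2.39-fold lower, adjusted p = 0.0011), Otud3 (2.14-fold lower, adjusted p = 0.0024) and Atxn3, the gene of Machado-Joseph ataxia (1.99-fold lower, adjusted p = 1.8e-04). Uchl1, an abundant neuronal ubiquitin hydrolase, was higher, with 8064, 7555 and 8267 on the TRAP arrays against 6510.1, 5649.7 and 6319.9 on the unbound arrays (0.37, adjusted p = 0.0063), as was Otud1 (0.57, adjusted p = 0.036). Of 8 cofactors of the Usps, 5 were lower and 1 higher as deposited, and 3 were lower and 2 higher after centring. They included Atxn7, the SAGA subunit that anchors Usp22 (2.58-fold lower, adjusted p = 1.4e-04), its partner Atxn7l3 (1.67-fold lower, adjusted p = 4.6e-04) and Gmps, a partner of Usp7 (2.27-fold lower, adjusted p = 1.7e-05). Eny2, another subunit of the same SAGA module, was higher (1.48-fold, adjusted p = 1.5e-04).

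On the conjugating side, 20 of 30 tested E3 partners were lower and 4 were higher as deposited, with a median log2 difference of -0.50, and 14 were lower and 7 higher after centring, with a median of -0.23. Huwe1, a very large HECT ligase, fell to 286, 341 and 272 on the TRAP arrays, against 1261, 1216 and 1198 on the unbound arrays, 4.11-fold lower (-2.04 ± 0.09 SE, adjusted p = 3.6e-05). Xiap (2.74-fold lower, adjusted p = 1.7e-04) and Ranbp2 (2.17-fold lower, adjusted p = 7.5e-04) followed. Of 5 E1 enzymes and subunits tested, Uba7 and Sae1 (0.30, adjusted p = 0.013) were higher and Uba6, the second ubiquitin E1, was lower (-1.23, adjusted p = 0.026). Of 4 ubiquitin-like proteins, Nedd8 was higher, with 4052, 4042 and 4052 on the TRAP arrays and 2432 on every unbound array (1.67-fold, adjusted p = 8.3e-06). Sumo3 was lower as deposited (-0.28, adjusted p = 0.049), a call lost after centring and with the block. Of 8 proteins with an E2 fold and another name, 3 were higher, led by Ufc1, the E2 of Ufm1 (1.56-fold, adjusted p = 0.0024), and 4 were lower, led by Aktip (1.90-fold lower, adjusted p = 2.3e-04).

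The deposited values limit how the errors can be read. In 16 of 30 E2 genes (53.3%) and 22 of 44 Usp genes (50.0%) the tested probe set held the same value on 2 or more arrays of a group, as it did in 50.6% of all genes. Such repeats make the spread within a group, and with it the standard error, smaller than that of independent measurements. With every probe set of this kind left out, 2 of 20 E2 genes were lower and limma called 0 of them higher (1 at an unadjusted p below 0.05), while 15 of 29 Usp genes were lower and 2 higher. Of all 6975 genes that could then be tested, 38.6% were lower and 19.0% higher.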

How the data were processed

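RNA was hybridised to 6 Affymetrix arrays, 3 TRAP and 3 unbound. The table holds linear-scale intensity per probe set as deposited, made with GCRMA per the submitters' processing notes; its version, and whether both groups were summarised in 1 run, are not given in the sources used here. GCRMA subtracts a background estimate, so ratios of dim probe sets are imprecise. The number of arrays limits the precision. Although the labels call the replicates biological, the animals behind them are not named, so p-values reflect only how far these samples spread, part of which may be technical.

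Symbols came from the platform annotation, in which 34958 probe sets have 1 symbol, 932 several and 9211 none. Of the 83 member genes 82 matched a RefSeq gene by Entrez ID, which changed 0 symbols. A further 8 probe sets with several symbols, one of them fitting the naming rule, were left out, and 1 Usp symbol is left out by the rule itself. Values were tested as log2 intensity, with no pseudocount since the lowest value was 1.63. Probe sets with a group mean of at least 50 in 1 group were kept (22591, without 64 control probe sets), a limma model (version 3.58.1, R 4.3.3, functions lmFit and eBayes, two-sided) was fitted to all of them, and p-values were Benjamini-Hochberg adjusted over all of them at a threshold of 0.05. Limma's treat tested against 2-fold. The brightest kept probe set stood for a gene. No gene was tested by permutation, which cannot go below a two-sided p of 0.1 with 3 arrays a group. The fit was checked on simulated data. Each of the 6 columns was used, and 0 were left out. Promoters are from RefSeq (GRCm38.p6), matched by symbol; other positions are not given, since no build is named for the array.

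Members, role groups and pathway lists were chosen with earlier results of these data known. Array values are given for the 6 called genes with the largest change in each class and direction. Log2 differences or fold changes, with array values for some, are given for called genes of the role groups. The same holds for genes with probe sets called in opposite directions, and for up to 3 genes of most pathway lists. Ube2d2a, Usp21, the array values of Usp42 and Uchl1, and single probe sets of Ube2a, Ube2b, Ube2g1, Ube2j2, Ube2v1, Usp14, Usp32 and Usp39 were added after their values were seen. The replicate numbers of the labels pair the samples: deviations from the group means correlated at r = 0.42, 0.45 and 0.37 between same-numbered samples and at -0.10 or below otherwise, across genes, which are not independent replicates. The fit without this block is the one reported, and block values stand beside calls they change. Alternatives changed the filter, floor, scaling, block, probe set choice, variance prior and arrays used.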

Additional observations from a re-analysis of the deposited data

How the results depend on the processing

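The class difference (E2 minus Usp median log2 difference, 0.41) stayed above 0 under each alternative run. It was 0.35 without a filter, 0.43 with both group means at least 50, 0.36 after quantile normalisation, 0.34 with the probe set of median change, 0.25 without probe sets of types that can match several transcripts (_x_at, _s_at, _a_at), 0.57 without repeated values and 0.35 to 0.48 on leaving out 1 array. E2 genes called higher numbered 17 after centring, 13 after quantile normalisation and 0 without repeated values, against 6. The shares of all genes called higher were 37.0%, 33.9% and 19.0%, against 23.2%. E2 genes called lower numbered 4, 5 and 2 under the same settings and 13 of 28 without the multiple-match types, against 8. The shares of all genes called lower were 30.2%, 32.3%, 38.6% and 49.2%, against 45.6%. Usp genes called higher numbered 8 without a filter, after centring and after quantile normalisation, 1 with both group means at least 50, 5 with the replicate block and 2 to 5 on leaving out 1 array (5 without unbound replicate 1), against 3. The share of all genes called higher was 26.4% without a filter and 21.0% with both group means at least 50. It was 24.5% with the block and 20.1% to 23.2% on leaving out 1 array. Usp genes called lower numbered 15 without repeated values, where 29 genes could be tested, and 24 to 30 on leaving out 1 array, against 28. The share of all genes called lower was 38.6% without repeated values and 40.1% to 43.0% on leaving out 1 array. The direction turned after centring for Ube2cbp (0.19), Usp1 (0.048), Usp20 (0.030), Usp3 (0.063), Usp5 (0.083), Usp6nl (0.0065) and Usp7 (0.012), and after quantile normalisation for Ube2cbp (0.22), Usp3 (0.066), Usp5 (0.014) and Usp6nl (0.0065), in step with the shift of all genes. It turned without the multiple-match types for Ube2d3 (-0.32), Ube2f (-0.54) and Ube2r2 (-0.43), and without repeated values for Ube2n (0.37) and Ube2w (0.20), where another probe set then stands for the gene. At the brightest probe sets of the member genes, the replicate block changed no named call beyond those given with its adjusted p. Beyond these shifts in scale and choice of probe set, the cause of the changes was not tested. Signal near background limits Usp18, Ube2l6, Usp43 and Usp40.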
